A study of Homo sapiens with 15 samples.

Results

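PLIN2 and 9 other genes of the cytosolic lipid droplet and of fatty acid handling were described across 5 ovarian cancer cell lines. The 10 genes are PLIN2, PLIN3, DGAT1, DGAT2, PNPLA2, ABHD5, ACSL1, ACSL3, FABP5 and CPT1A, and all 10 were found among the 16604 genes of the deposited expression table by their Ensembl identifiers. PLIN2 was chosen on its measured differences between lines in earlier results of these data, so its levels are given as a description with no test. The companions were chosen by their roles around it, with those earlier results known. The lines come from OVCAR4, an established cell line of high-grade serous carcinoma, the most common type of ovarian cancer. Ovcar4Parental is labelled sensitive to cisplatin and carboplatin, Ov4Cis was selected by rising cisplatin, and Ov4Carbo by rising carboplatin. Ov4Carbo4 and Ov4Carbo7 were each grown from a single cell of Ov4Carbo, so each is 1 clone, and both are labelled carboplatin resistant. All 5 lines were grown in DMEM with serum, and the labels describe 3 biological replicates of each line, 15 samples in all. RNA was column purified, and libraries were made by polyA capture.

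A lipid droplet is a core of triacylglycerol and sterol esters under a single phospholipid layer with coat proteins. Fatty acids are activated to acyl-CoA by acyl-CoA synthetases and esterified into triacylglycerol, with the last step made by the DGAT enzymes. The stored lipid is released again by lipases, and the freed fatty acids can enter mitochondria through CPT1A for oxidation. PLIN2 coats droplets in most cell types outside fat tissue, and its protein is degraded when it is not bound to a droplet, so it is widely used as a marker of stored lipid. RNA was measured here, not protein or lipid.

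Levels are given as log2 RPKM, that is reads per length of gene scaled to the read total, after conditional quantile normalization by the authors, and a difference of 1 on this scale is a doubling. The median per sample was 2.77 in all 15, and the depth behind each value is unknown. Differences between lines were tested with limma over all genes, with Benjamini-Hochberg adjustment. "Called" means here that the adjusted p lay under 0.05 and the 2 line means were at least 1 log2 unit apart. In bulk RNA, fewer expressing cells and less RNA per cell cannot be told apart. Replicates of Ov4Carbo were the least alike, with a mean root-mean-square difference of 0.69 log2 units per gene against 0.34 to 0.48 in the other lines. Replicate 1 of Ov4Carbo lay nearer to Ov4Carbo7 (0.89) than replicate 2 (1.13) or replicate 3 (1.07) did, and its title number belongs to the series of numbers that also holds all Ov4Carbo4 and Ov4Carbo7 samples. Results that turn on it are given with and without it. Of 10 markers of serous epithelium, 9 lay at 1 RPKM or more in every replicate of the parental line, Ov4Carbo and Ov4Carbo4, 8 in Ov4Carbo7, and only KRT18, EPCAM, PAX8 and KRT8 in Ov4Cis. Their summed level was 821 to 966 RPKM in the parental line, 402 to 476 in Ov4Carbo, 333 to 411 in Ov4Carbo4, 330.1 to 348 in Ov4Carbo7 and 158 to 190 in Ov4Cis, and the part of this difference in the results below was not tested.

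PLIN2 (ENSG00000147872, chromosome 9) was abundant in Ov4Carbo7 and Ov4Cis, moderate in the parental line and near the floor of the table in Ov4Carbo4. In Ov4Carbo7 its log2 RPKM was 5.47, 5.69 and 5.18 in replicates 1 to 3, and in Ov4Cis it was 6.09, 4.31 and 4.36. The parental samples read 2.08, 2.06 and 1.26. The ranges of Ov4Carbo7 and Ov4Cis overlapped, and both lay wholly above the parental range.

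In Ov4Carbo4, the other clone of the same source line, PLIN2 read -4.95, -6.00 and -4.74, which is 0.0324, 0.0157 and 0.0373 RPKM. The lowest value of any gene in a sample lay between -8.18 and -7.68, and at such levels a log2 value depends on few reads and on the offset of the normalization. Ov4Carbo itself was split. Its replicate 1 read 2.39, above all parental samples, while replicates 2 and 3 read -3.37 and -4.35, between the parental and the Ov4Carbo4 values.

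**Figure D1:**
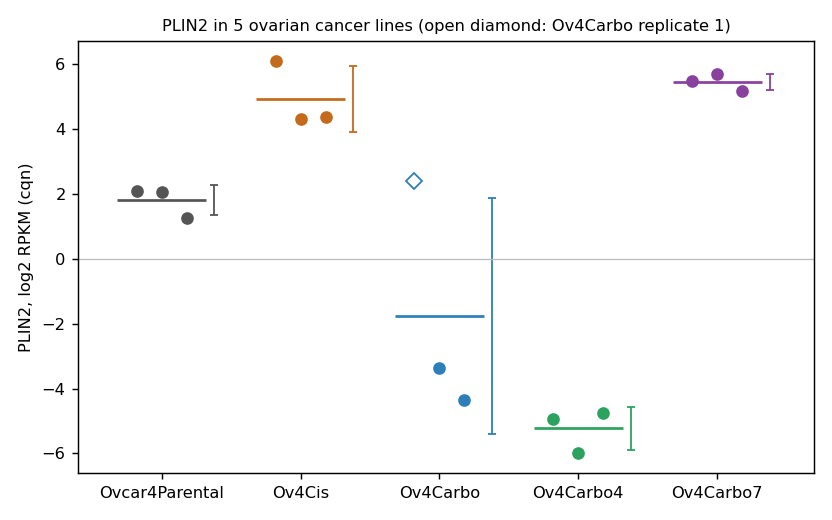
PLIN2 log2 RPKM in each of the 15 samples (points) by line, with the line mean, a bar of ± 1 SD (n = 3) and Ov4Carbo replicate 1 as an open diamond. Ov4Carbo7 (mean 5.44) and Ov4Cis (4.92) sit above the parental line (1.80), Ov4Carbo4 (-5.23) sits at the bottom, and Ov4Carbo replicate 1 at 2.39 stands far above replicates 2 and 3 of its line.

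The mean PLIN2 level was 5.44 ± 0.26 (SD, n = 3) in Ov4Carbo7, 4.92 ± 1.01 in Ov4Cis, 1.80 ± 0.47 in the parental line, -1.77 ± 3.64 in Ov4Carbo and -5.23 ± 0.67 in Ov4Carbo4. In that order, Ov4Carbo7 and Ov4Cis overlapped, as did the parental line and Ov4Carbo, the latter through replicate 1 alone. The span of 10.67 between the highest and the lowest line mean was matched or passed by 4 genes of the table, PLIN2 among them, where the median gene spanned 0.86. It was the difference that chose the gene.

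Against the parental line, the log2 difference of PLIN2 was 3.12 in Ov4Cis, 3.64 in Ov4Carbo7, -7.03 in Ov4Carbo4 and -3.58 in Ov4Carbo (SE 1.28 each, from the model over all samples). These 4 differences share the parental samples. Without Ov4Carbo replicate 1 the difference of Ov4Carbo was -5.66 and the SE of the other 3 was 0.49. Ov4Carbo7 minus Ov4Carbo was 7.22, and 9.30 without that replicate. Ov4Carbo4 minus Ov4Carbo was -3.46, and -1.37 without it.

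On log2(RPKM + 1), which shrinks differences among low values, the PLIN2 differences from the parental line were 2.80 in Ov4Cis, 3.30 in Ov4Carbo7, -2.14 in Ov4Carbo4 and -1.23 in Ov4Carbo. The direction was that of the deposited scale in all 4, and the size of the low-end differences was smaller. When a term for the title number series is added, the difference of Ov4Carbo7 from the parental line becomes -2.60. That term is estimated from Ov4Carbo replicate 1 against replicates 2 and 3 alone, since Ov4Carbo is the only line in both series, and the series and the lines cannot otherwise be told apart.

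Most of the 10 genes were alike in the 3 replicates of Ov4Carbo. Replicate 1 minus the mean of replicates 2 and 3 was 6.24 for PLIN2, at percentile 99.99 of the absolute difference over all genes, whose median was 0.31. FABP5 followed at -2.11 (percentile 98.0), in the opposite direction. The other 8 genes differed by at most 0.38. In RPKM, PLIN2 in this replicate stood at 11.9% of the Ov4Carbo7 mean.

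The stretches of 250 bases before the annotated starts of PLIN2 and ACSL1 are shown because ACSL1 was the gene of the 10 whose level across samples ran most like that of PLIN2, as described further on. Both are from RefSeq on GRCh38.p14, which is not the build of the deposited values, and are written 5′ to 3′ on the gene's strand, the minus strand in both: chr9:19127493-19127742 for PLIN2 and chr4:184825969-184826218 for ACSL1, the most upstream of 5 annotated starts. Capitals mark matches to the E-box CACGTG, the GC box GGGCGG and the TATA box TATAAA, each searched on both strands. Of the 10 genes, 7 have an entry in that table.
PLIN2: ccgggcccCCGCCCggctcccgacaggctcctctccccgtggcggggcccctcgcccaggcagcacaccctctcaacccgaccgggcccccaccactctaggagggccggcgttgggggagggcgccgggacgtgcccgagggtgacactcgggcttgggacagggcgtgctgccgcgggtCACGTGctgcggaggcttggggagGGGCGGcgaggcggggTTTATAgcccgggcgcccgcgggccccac
ACSL1: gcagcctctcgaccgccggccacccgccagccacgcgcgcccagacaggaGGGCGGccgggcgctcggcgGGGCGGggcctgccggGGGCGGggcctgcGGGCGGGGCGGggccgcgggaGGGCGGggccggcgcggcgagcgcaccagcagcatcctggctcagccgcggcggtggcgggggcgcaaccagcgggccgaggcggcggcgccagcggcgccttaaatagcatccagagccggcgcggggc

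The PLIN2 stretch holds an E-box 69 to 64 bases before the start, a GC box at 45 to 40 and another, as CCGCCC, at 242 to 237. A TATA box lies on the other strand, read as TTTATA, at 29 to 24. The ACSL1 stretch holds 6 GC boxes, 2 of which overlap. Over 35116 stretches of the same length before annotated starts, 6.34% held the E-box, 42.6% the GC box and 10.7% the TATA box on either strand. GC content was 78% for PLIN2 and 83.6% for ACSL1, against a median of 58% over all. AGGTCA, a motif of nuclear receptors (12.1% of all stretches), and TGACTCA, the AP-1 site (4.20%), were searched too and are not among the letters of these 2 windows. The AP-1 site is in the window of another annotated start of ACSL1. A match or its absence is a description of the letters only.

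PLIN3, a coat protein that moves between cytosol and droplet surface and is present in most cells, varied far less in level. Its log2 RPKM was 4.93, 4.70 and 4.41 in the parental line, 4.71, 4.46 and 4.55 in Ov4Cis, 4.10, 4.04 and 4.33 in Ov4Carbo, 4.66, 4.50 and 4.32 in Ov4Carbo4, and 4.57, 4.71 and 4.76 in Ov4Carbo7. Neighbouring lines in the order of means overlapped throughout, and the means spanned 0.53. It was lower in Ov4Carbo than in the parental line by the adjusted p alone (log2 difference -0.53, SE 0.14, limma adjusted p = 0.0135), and that was lost without parental replicate 1 (adjusted p = 0.0514). Ov4Carbo7 was higher than Ov4Carbo by the adjusted p alone (0.53, SE 0.14, adjusted p = 0.0122), with ranges that did not overlap, and this held without each replicate in turn (highest adjusted p 0.0473). Ov4Carbo7 and Ov4Carbo4 differed by 0.19 (SE 0.14, adjusted p = 0.292).

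The balance of the 2 coat genes followed PLIN2. The PLIN2 to PLIN3 ratio of RPKM lay between 0.113 and 0.161 in the parental samples, at 1.87, 1.97 and 1.34 in Ov4Carbo7 and at 2.60, 0.906 and 0.873 in Ov4Cis. In Ov4Carbo4 it was 0.00128, 0.000692 and 0.00187. Ov4Carbo read 0.306 in replicate 1 and 0.00588 and 0.00245 in replicates 2 and 3. PLIN2 exceeded PLIN3 per length in all Ov4Carbo7 samples and in 1 Ov4Cis sample, and PLIN3 was the higher in every other sample.

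ACSL1, an acyl-CoA synthetase of the outer mitochondrial and endoplasmic reticulum membranes, was the highest of the 10 genes in Ov4Carbo7. It read 6.39, 6.60 and 6.44 there, against 4.16, 4.73 and 4.21 in Ov4Carbo4. The other lines lay between, with 5.36, 4.98 and 5.05 in the parental line, 5.40, 5.11 and 5.24 in Ov4Carbo, and 6.01, 5.57 and 5.16 in Ov4Cis. Every Ov4Carbo7 value was above, and every Ov4Carbo4 value below, all values of the other lines.

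On log2 RPKM, ACSL1 was 1.35 higher in Ov4Carbo7 than in the parental line (SE 0.21, limma adjusted p = 2.26e-04) and 1.23 higher than in Ov4Carbo (SE 0.21, adjusted p = 7.06e-04). Ov4Carbo4 was lower than the parental line by the adjusted p alone (-0.77, SE 0.21, adjusted p = 0.0109), and likewise lower than Ov4Carbo (-0.89, SE 0.21, adjusted p = 0.00478), which reached the fold limit only without Ov4Carbo4 replicate 2. The clones differed by 2.11 (SE 0.21, adjusted p = 5.15e-06). Ov4Cis was 0.45 above the parental line without passing (SE 0.21, adjusted p = 0.11), and passed the adjusted p without Ov4Cis replicate 3 (adjusted p = 0.0254).

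ACSL3, the synthetase that localises to the endoplasmic reticulum and to forming droplets, gave another pattern: the parental line stood above all 4 derived lines. It read 4.62, 4.66 and 4.66 in the parental samples, 3.85, 3.71 and 3.77 in Ov4Cis, 3.81, 3.74 and 3.62 in Ov4Carbo4, and 3.76, 3.80 and 3.73 in Ov4Carbo7. Ov4Carbo, with 3.93 and 3.76 in replicates 1 and 2 and a mean of 3.90 ± 0.13 (SD, n = 3), was the nearest to the parental line, and its range did not reach the parental range. The log2 difference from the parental line was -0.87 in Ov4Cis (SE 0.09, limma adjusted p = 8.00e-06), -0.75 in Ov4Carbo (adjusted p = 5.56e-05), -0.92 in Ov4Carbo4 (adjusted p = 6.57e-06) and -0.88 in Ov4Carbo7 (adjusted p = 8.17e-06). All 4 share the parental samples, and none reached the fold limit of 1. The clones did not separate, with a difference of 0.04 (SE 0.09, adjusted p = 0.7).

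**Figure D2:**
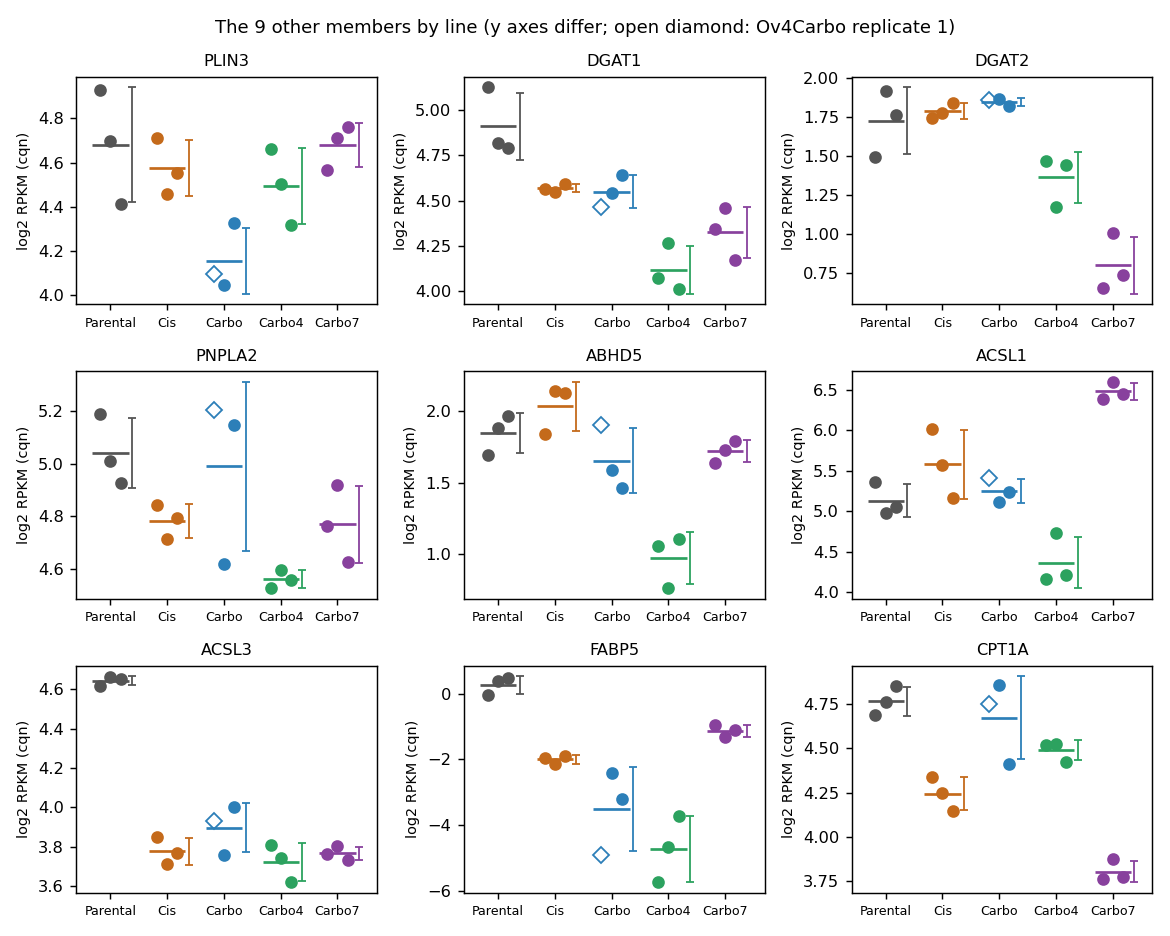
Log2 RPKM of the 9 genes other than PLIN2 in each of the 15 samples by line (points; the y axes differ), with the line mean, a bar of ± 1 SD (n = 3) and Ov4Carbo replicate 1 as an open diamond. The line means of FABP5 span 4.98 and those of ACSL1 2.11, and those of the remaining 7 genes span at most 1.06.

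DGAT1, the triacylglycerol-forming enzyme of the endoplasmic reticulum, was highest in the parental line, at 5.13, 4.82 and 4.79. It read 4.57, 4.55 and 4.59 in Ov4Cis, 4.46, 4.54 and 4.64 in Ov4Carbo, 4.07, 4.26 and 4.01 in Ov4Carbo4, and 4.34, 4.46 and 4.17 in Ov4Carbo7. The parental range lay above that of each derived line. By the adjusted p alone it was lower in Ov4Carbo4 (-0.80, SE 0.11, limma adjusted p = 1.65e-04) and Ov4Carbo7 (-0.59, adjusted p = 0.0013). The differences of -0.34 in Ov4Cis (adjusted p = 0.0331) and -0.36 in Ov4Carbo (adjusted p = 0.0284) did not hold without parental replicate 1 (adjusted p = 0.136 and 0.103). That of Ov4Cis was also lost without its replicate 1, 2 or 3 (adjusted p = 0.0731, 0.0848 and 0.0704). That of Ov4Carbo was also lost without its replicate 1 (adjusted p = 0.0649) or replicate 2 (adjusted p = 0.0578).

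DGAT2, an enzyme of another protein family that catalyses the same step and can act at the droplet surface, was lowest in Ov4Carbo7. Its values there were 0.65, 1.00 and 0.73, against 1.47, 1.17 and 1.44 in Ov4Carbo4, 1.86, 1.87 and 1.82 in Ov4Carbo, 1.74, 1.78 and 1.84 in Ov4Cis, and 1.49, 1.92 and 1.77 in the parental line. The Ov4Carbo7 range lay below all others, and the Ov4Carbo4 range lay below the remaining 3. Ov4Carbo7 was lower than Ov4Carbo (log2 difference -1.05, SE 0.13, limma adjusted p = 7.99e-05), which fell just short of the fold limit without Ov4Carbo7 replicate 1 (-0.98). On log2(RPKM + 1) that difference was -0.75, under the fold limit. Against the parental line the difference was -0.93 (SE 0.13, adjusted p = 9.73e-05) and against Ov4Carbo4 -0.57 (SE 0.13, adjusted p = 0.00262), both under the fold limit. The former reached it without Ov4Carbo7 replicate 2 (-1.03) or parental replicate 1 (-1.05).

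In every sample DGAT1 was several times DGAT2 per length. The RPKM ratio had a median of 8.14 in the parental line (7.49 to 12.4), 6.82 in Ov4Cis, 6.39 in Ov4Carbo and 6.07 in Ov4Carbo4 (5.92 to 8.52). In Ov4Carbo7 it lay between 10.8 and 12.9, above all samples of the other derived lines and overlapping the parental range. The line with the highest mean PLIN2 had the lowest mean DGAT2 of the 5, but the other lines did not follow such an order. Ov4Carbo4, with the lowest PLIN2, had the next lowest mean DGAT2 (1.36). Ov4Cis, with high PLIN2, had a mean DGAT2 of 1.79, beside 1.72 in the parental line.

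PNPLA2, the lipase also called ATGL that takes the first fatty acid from triacylglycerol, varied least by line, with means spanning 0.48. It read 5.19, 5.01 and 4.93 in the parental line, 5.20, 4.62 and 5.15 in Ov4Carbo, and 4.84, 4.71 and 4.79 in Ov4Cis. In Ov4Carbo4 it read 4.53, 4.60 and 4.56 and in Ov4Carbo7 4.76, 4.92 and 4.63. Ov4Carbo4 lay wholly below the other 4 lines. It was lower than the parental line by the adjusted p alone (-0.48, SE 0.14, limma adjusted p = 0.018), lost without Ov4Carbo4 replicate 1 (adjusted p = 0.0527) or parental replicate 1 (adjusted p = 0.0682).

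ABHD5, the co-activator that binds PNPLA2 and is held at the droplet by perilipins, was also lowest in Ov4Carbo4, at 1.05, 0.76 and 1.10. The other 12 samples lay between 1.46 and 2.14. Ov4Carbo4 was lower by the adjusted p alone than the parental line (-0.87, SE 0.14, limma adjusted p = 3.60e-04) and than Ov4Carbo (-0.68, SE 0.14, adjusted p = 0.00228), and Ov4Carbo7 was higher than Ov4Carbo4 (0.75, SE 0.14, adjusted p = 7.36e-04). Ov4Carbo7 and the parental line overlapped (-0.13, SE 0.14, adjusted p = 0.493).

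FABP5, a cytosolic carrier of fatty acids, had the second-largest span of the 10 genes at 4.98, nearly all of it at low levels. It read -0.06, 0.37 and 0.46 in the parental line, -0.95, -1.32 and -1.12 in Ov4Carbo7 and -1.97, -2.15 and -1.89 in Ov4Cis. In Ov4Carbo it read -4.92, -2.43 and -3.20, and in Ov4Carbo4 -5.75, -4.68 and -3.74. The parental, Ov4Carbo7 and Ov4Cis ranges were apart from each other, and Ov4Carbo overlapped Ov4Carbo4. FABP5 has near-identical pseudogene copies, so reads could be shared with them and its level is uncertain.

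Set against the parental line, FABP5 was lower, with log2 differences of -2.26 in Ov4Cis (SE 0.55, limma adjusted p = 0.00627), -3.77 in Ov4Carbo (adjusted p = 2.85e-04) and -4.98 in Ov4Carbo4 (adjusted p = 2.16e-05). The -1.39 of Ov4Carbo7 did not pass (adjusted p = 0.0596), although it did without Ov4Carbo replicate 1 (adjusted p = 0.0131) or replicate 2 (adjusted p = 0.033). It also passed without Ov4Carbo4 replicate 1 (adjusted p = 0.0402) or replicate 3 (adjusted p = 0.0431). Ov4Carbo7 was 2.38 above Ov4Carbo (SE 0.55, adjusted p = 0.00521) and 1.68 above it without that replicate (adjusted p = 0.00978). The clones differed by 3.59 (SE 0.55, adjusted p = 1.66e-04), and Ov4Carbo4 minus Ov4Carbo was -1.21 (adjusted p = 0.0955), or -1.91 without Ov4Carbo replicate 1 (adjusted p = 0.00476). On log2(RPKM + 1) the differences from the parental line shrank to -0.82 in Ov4Cis, -0.99 in Ov4Carbo, -1.08 in Ov4Carbo4 and -0.59 for Ov4Carbo7, and only that of Ov4Carbo4 was still called. On that scale Ov4Carbo7 minus Ov4Carbo was 0.40 and Ov4Carbo7 minus Ov4Carbo4 was 0.48, both under the fold limit.

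CPT1A, which loads fatty acids for import into mitochondria, was lowest in Ov4Carbo7. It read 3.76, 3.88 and 3.78 there, against 4.69, 4.76 and 4.85 in the parental line, 4.75, 4.86 and 4.41 in Ov4Carbo, 4.52, 4.53 and 4.42 in Ov4Carbo4, and 4.33, 4.24 and 4.15 in Ov4Cis. The Ov4Carbo7 range lay below all others, and Ov4Cis came next. By the adjusted p alone Ov4Carbo7 was lower than the parental line (-0.96, SE 0.11, limma adjusted p = 2.82e-05), than Ov4Carbo (-0.87, adjusted p = 1.27e-04) and than Ov4Carbo4 (-0.68, adjusted p = 2.96e-04), and Ov4Cis was lower than the parental line (-0.52, adjusted p = 0.00299). The 2 lines with the highest PLIN2 had the lowest CPT1A.

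**Figure D3:**
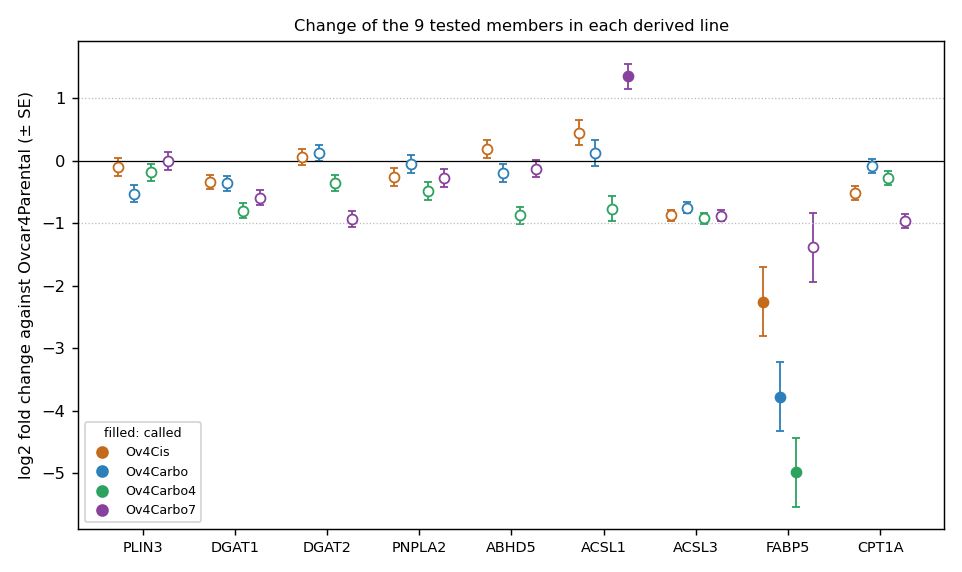
Log2 difference of the 9 genes from the parental line in each derived line, with bars of ± 1 SE and filled points for called differences. FABP5 is filled in Ov4Cis (-2.26), Ov4Carbo (-3.77) and Ov4Carbo4 (-4.98) and ACSL1 in Ov4Carbo7 (1.35), and every other point but FABP5 in Ov4Carbo7 (-1.39) lies within 1 log2 unit of 0.

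Counted over the 9 genes other than PLIN2, 1 was called in each line against the parental line: FABP5, lower, in Ov4Cis, Ov4Carbo and Ov4Carbo4, and ACSL1, higher, in Ov4Carbo7. Of all genes, 15.9%, 12.7%, 15.1% and 17% were called in the same order. Against Ov4Carbo, 0 of 9 were called in Ov4Carbo4 and 3 in Ov4Carbo7 (ACSL1 and FABP5 higher, DGAT2 lower), where 14.2% and 13.3% of all genes were. Between the clones 2 of 9 were called, ACSL1 and FABP5, both higher in Ov4Carbo7, where 20.9% of all genes were. Of 9 genes, 1 is 11.1%, 2 are 22.2% and 3 are 33.3%, so each gene moves the share by 11.1 points and the counts are read with that coarseness.

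At the adjusted p alone, which leaves out the fold limit, 4 of the 9 passed against the parental line for Ov4Cis, 4 for Ov4Carbo, 7 for Ov4Carbo4 and 5 for Ov4Carbo7, with 36.2%, 34%, 39.7% and 42.6% of all genes. Those that passed were all lower in Ov4Cis, Ov4Carbo and Ov4Carbo4, and in Ov4Carbo7 4 were lower and 1 higher. The median log2 difference over the 9 genes was -0.26 for Ov4Cis, -0.19 for Ov4Carbo, -0.77 for Ov4Carbo4 and -0.59 for Ov4Carbo7, where the medians over all genes were 0.04, 0.03, 0.07 and 0.02. Between the clones 5 of 9 passed, with 51.1% of all genes. Against Ov4Carbo 5 of 9 passed in each clone, with 42.2% of all genes for Ov4Carbo4 and 36.6% for Ov4Carbo7.

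Across the 15 samples, with the 3 replicates of a line sharing that line, the levels of ACSL1 and ABHD5 ran most closely with PLIN2 (Pearson r 0.81 and 0.80), followed by FABP5 (0.61), PLIN3 (0.43), DGAT1 (0.30), PNPLA2 (0.29) and ACSL3 (0.09). DGAT2 (-0.21) and CPT1A (-0.52) ran the other way. Without Ov4Carbo replicate 1, over 14 samples, FABP5 stood at 0.69, PLIN3 at 0.53, CPT1A at -0.56, DGAT2 at -0.24, ACSL1 at 0.82 and ABHD5 at 0.80. These are descriptions over 5 lines and carry no test.

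The genes most like PLIN2 were looked for among 1450 genes with a symbol whose line means spanned at least 2 log2 units and whose highest line mean was at least 1. The 8 highest correlations over the 15 samples belonged to CXCL5, a neutrophil-attracting chemokine (0.98), CD44, a receptor for hyaluronan (0.98), PNMA2 (0.97), CLMP, a junctional adhesion protein (0.96), VCAN, a matrix proteoglycan (0.96), MGLL, the lipase that splits monoacylglycerol (0.96), RNF144A (0.95) and KCNE3, a potassium channel subunit (0.95). CXCL5 averaged 5.93 in Ov4Carbo7, 5.69 in Ov4Cis and -1.76 in Ov4Carbo4. In Ov4Carbo it read 3.87 in replicate 1 and 0.98 and 1.09 in replicates 2 and 3, a contrast that its choice by likeness to PLIN2 over these same samples favours. Without that replicate CD44 came first, and KCNE3 moved to rank 10, outside the 8. The 4 lowest were SPSB4 (-0.94), SYT14 (-0.94), SH3BP5 (-0.93) and SAMD11 (-0.93).

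PLIN2 lies on chromosome 9, and the 4 nearest table genes on each side in GENCODE order are CNTLN, a processed pseudogene, RRAGA and HAUS6 before it and another processed pseudogene, DENND4C, RPS6 and ACER2 after it. RRAGA encodes a GTPase that brings mTORC1 to the lysosome. It read 7.30, 7.39 and 7.33 in Ov4Carbo7, 5.41, 5.56 and 5.51 in the parental line, 5.31, 5.38 and 5.32 in Ov4Carbo4, and 6.05, 5.14 and 5.19 in Ov4Carbo. Every Ov4Carbo7 value lay above all the others, and Ov4Carbo replicate 1 was again above its line.

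RRAGA was 1.85 higher in Ov4Carbo7 than in the parental line (SE 0.19, limma adjusted p = 9.59e-06), DENND4C 1.05 higher (SE 0.12, adjusted p = 3.14e-05), and HAUS6, a subunit of the augmin complex of the spindle, 0.99 higher (SE 0.10, adjusted p = 1.15e-05), just under the fold limit. Against Ov4Carbo4 the differences were 2.01, 1.10 and 1.35, and all 3 were called. CNTLN (-0.29, adjusted p = 0.094), RPS6 (-0.32, adjusted p = 0.083) and the pseudogenes (-0.01 and -0.28) did not pass there, although RPS6 passed the adjusted p without Ov4Carbo replicate 1 (adjusted p = 0.0492), and ACER2, an alkaline ceramidase, was lower (-2.28, adjusted p = 1.36e-04). Ov4Cis, whose PLIN2 range overlapped that of Ov4Carbo7, gave -0.01 for RRAGA, -0.22 for HAUS6 and -0.27 for DENND4C against the parental line. None of these passed with all samples, and DENND4C passed the adjusted p alone without Ov4Carbo replicate 1 (adjusted p = 0.045). Of the 8 neighbours, 2 were called in Ov4Carbo7 against the parental line, where 17% of all genes were, and 4 between the clones, where 20.9% were.

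**Figure D4:**
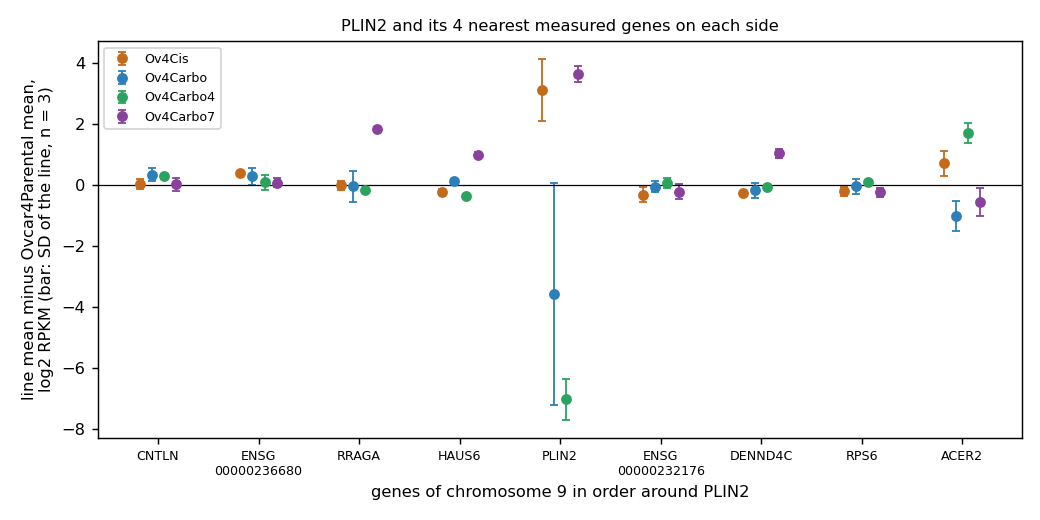
Line mean minus parental mean in log2 RPKM for PLIN2 and its 8 neighbours in gene order on chromosome 9, with bars of ± 1 SD of the line (n = 3). RRAGA (1.85), HAUS6 (0.99) and DENND4C (1.05) are higher together with PLIN2 in Ov4Carbo7, while in Ov4Cis these 3 neighbours stay between -0.27 and -0.01.

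Of 100 other genes of 6 lists (droplet surface, neutral lipid synthesis, lipolysis, fatty acid uptake and binding, fatty acid oxidation, and PPAR factors and targets), 75 had values. Between the clones 15 were called, 9 higher and 6 lower in Ov4Carbo7. That is 20% of the 75, where 20.9% of all genes were called, and the median difference was -0.06 against -0.05 over all genes. Against the parental line 7 were called in Ov4Cis (5 higher, 2 lower), 5 in Ov4Carbo (2 and 3), 12 in Ov4Carbo4 (4 and 8) and 10 in Ov4Carbo7 (4 and 6). As shares of the 75 these are 9.33%, 6.67%, 16% and 13.3%, beside 15.9%, 12.7%, 15.1% and 17% of all genes. Against Ov4Carbo 5 were called in Ov4Carbo4 (2 and 3), or 6.67% beside 14.2% of all genes, and 10 in Ov4Carbo7 (4 and 6), or 13.3% beside 13.3%.

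Among droplet surface genes 0 of 12 were called between the clones. HILPDA, a small droplet protein that inhibits PNPLA2, came closest and was named after its values were seen: it read 4.11, 3.85 and 4.34 in Ov4Carbo7 and 3.19, 3.17 and 3.02 in Ov4Carbo4 (0.97, SE 0.14, limma adjusted p = 1.19e-04). It reached the fold limit without Ov4Carbo4 replicate 1 or Ov4Carbo7 replicate 2. In Ov4Carbo7 against Ov4Carbo it was called (1.01, adjusted p = 2.10e-04), and fell under the fold limit without Ov4Carbo replicate 1 (0.92). The further coat genes PLIN4 and PLIN5 lay below log2 RPKM 0 in every sample. In lipolysis 2 of 9 were higher and 1 lower. G0S2, another inhibitor of PNPLA2, read 1.09, 1.84 and 0.80 in Ov4Carbo7 and -5.04, -3.30 and -3.30 in Ov4Carbo4 (5.13, SE 0.70, adjusted p = 6.76e-05). MGLL read 6.44, 6.41 and 6.30 against 3.75, 3.70 and 3.58 (2.71, SE 0.24, adjusted p = 2.21e-06).

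LIPE, the hormone-sensitive lipase, went the other way in the clones, at -1.04, -0.90 and -1.72 in Ov4Carbo7 and 1.13, 1.02 and 0.99 in Ov4Carbo4 (-2.26, SE 0.19, limma adjusted p = 1.79e-06). In neutral lipid synthesis 1 of 14 was higher and 1 lower. GPAT3, which makes the first acylation of glycerol 3-phosphate, was 3.37 higher in Ov4Carbo7 (SE 0.30, adjusted p = 2.32e-06), at 1.80, 1.78 and 1.97 against -1.55, -1.51 and -1.51. In Ov4Cis, the other line with high PLIN2, the difference from the parental line was 1.56 for GPAT3 (called, adjusted p = 0.00125), -1.11 for PPARGC1A (called, adjusted p = 0.0235), -0.04 for G0S2 (adjusted p = 0.973) and -0.03 for MGLL (adjusted p = 0.938). Between the clones AGPAT3, of the next step, was lower in Ov4Carbo7 than in Ov4Carbo4 (-1.32, adjusted p = 1.73e-05).

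Of uptake and binding genes 1 of 10 was higher, FABP6 (1.53), and 2 were lower, the transport proteins SLC27A3 (-2.36) and SLC27A5 (-1.31). Of 19 oxidation genes 3 were higher, SLC25A20 (1.05), ACAA1 (1.04) and EHHADH (1.01), each of which lost the fold limit without some replicate of the clones, and CPT1C was lower (-5.30). Of 11 PPAR factors and targets, PPARGC1A, the coactivator PGC-1 alpha, was higher (2.995, SE 0.34, limma adjusted p = 1.76e-05), at 3.58, 3.66 and 3.39 in Ov4Carbo7 and 0.45, 1.17 and 0.02 in Ov4Carbo4. UCP2 was higher (1.80) and RXRA lower (-1.04), the latter under the fold limit without replicate 1 of either clone (-0.97 without that of Ov4Carbo4, -0.98 without that of Ov4Carbo7). PPARA differed by 0.01 (adjusted p = 0.964), and PPARD by -0.78 (adjusted p = 4.38e-04), under the fold limit. Against the parental line, UCP2 was -1.57 in Ov4Carbo4 (called) and 0.23 in Ov4Carbo7 (adjusted p = 0.175). RXRA was 0.93 in Ov4Carbo4 and -0.11 in Ov4Carbo7, neither called. PPARGC1A was -1.77 in Ov4Carbo4 and 1.22 in Ov4Carbo7, each called.

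Many of these genes are low in 1 clone, and on log2(RPKM + 1) 11 of the 75 were called between the clones. On that scale 1746 of all 16604 genes were called there, in place of 3478. G0S2 was then 1.66, GPAT3 1.77, LIPE -1.09 and CPT1C -1.24, while MGLL (2.62), PPARGC1A (2.34) and UCP2 (1.76) moved less. SLC27A5 (-0.92), SLC25A20 (0.75), ACAA1 (0.94), EHHADH (0.78) and RXRA (-0.93) fell under the fold limit on that scale.

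**Figure D5:**
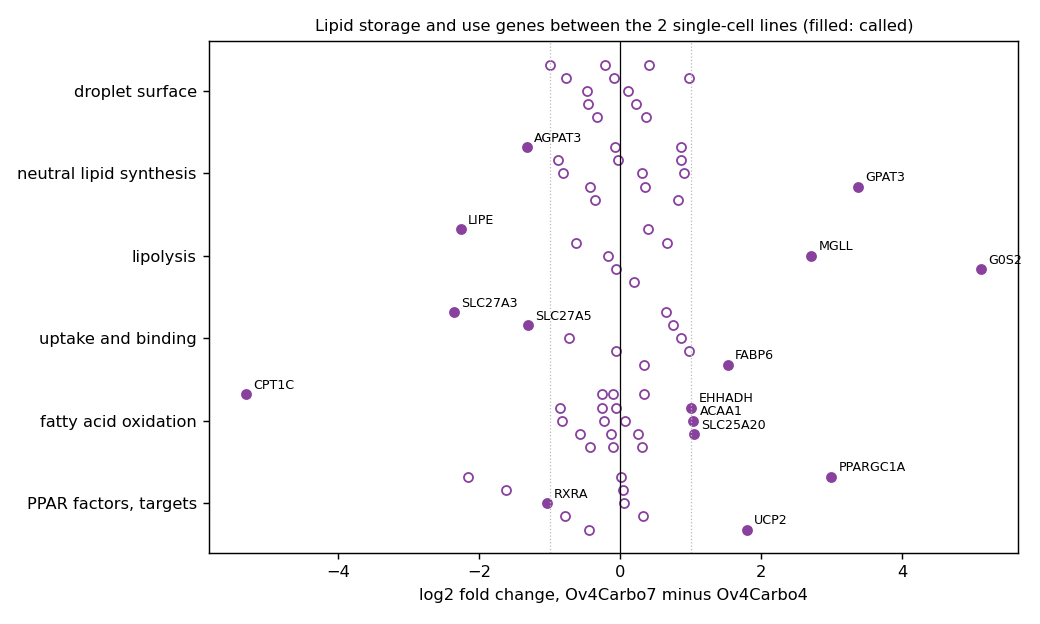
Log2 difference of Ov4Carbo7 from Ov4Carbo4 for the 75 listed genes, by list, with called genes named. Called genes lie on both sides of 0 in all lists but droplet surface, which has none, from CPT1C at -5.30 to G0S2 at 5.13, which become -1.24 and 1.66 on log2(RPKM + 1).

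Markers of cells that store lipid or could carry it were looked at beside these levels. Of 8 adipocyte markers only LIPE had values, at 0.304 to 0.537 RPKM in Ov4Carbo7 and 1.99 to 2.18 in Ov4Carbo4. Of 8 macrophage markers only CD14 had values, at 1.11 to 1.83 RPKM in Ov4Carbo7 and 0.374 to 1.08 in the other lines. Of 8 fibroblast markers 4 had values, summing to 6.71 to 8.51 RPKM in Ov4Carbo7 and 11.5 to 14.6 in Ov4Carbo4. The other markers of these lists were looked up and had no values under their symbols. The part of such cells in the PLIN2 levels was not tested.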

How the data were processed

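PolyA RNA-seq values of 15 samples from 5 lines were used. The authors deposited log2 RPKM after conditional quantile normalization (cqn), as the name of the deposited table says. The submitters' processing notes name BWA 0.7.15-r1140, HTSeq, hg19 and GRCh37, with no role given. That the base is 2 was checked against exonic lengths. No counts were used and the depth is unknown, so precision rests on the replicates. Quantile normalization also removes differences in overall RNA content.

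Ensembl identifiers were matched to symbols for 15585 of 16604 genes, and gene order came from GENCODE v29. A model with a coefficient per line was fitted to all genes and samples with limma 3.58.1 in R 4.3.3 (two-sided, 7 contrasts), with p-values adjusted by Benjamini-Hochberg over all genes in each contrast. The script was tested on simulated data. Python 3.11.15 with pandas 2.3.3 and matplotlib 3.10.9 made the tables and plots.

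The members and lists were chosen with earlier results of these data known. Named were all 10 members, listed genes called between the clones with a higher line mean of at least log2 RPKM 1 (at most 5 a list) and listed PPAR factors, the 8 genes most and 4 least like PLIN2, and the 4 neighbours on each side. CPT1C, HILPDA, PLIN4, PLIN5, CD14 and the CXCL5 values are outside it and were named after their values were seen. The alternatives were a variance trend, log2(RPKM + 1), log2(RPKM + 0.1), a filter on mean log2 RPKM 1 (12037 genes), the adjusted p alone, a fit of only the groups compared, a term for the title series, a replicate block and leaving out each replicate in turn.

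Replicate numbers carried no stated pairing. Deviations from the line means correlated above 0.1 in 11 of 30 pairs of samples with the same number (median -0.02) and in 24 of 60 pairs with different numbers (median 0.02), so the samples were treated as unpaired.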

Additional observations from a re-analysis of the deposited data

Results flagged for a closer look

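The clones Ov4Carbo4 and Ov4Carbo7 come from the same line, and the change of a gene from Ov4Carbo can be set side by side in both. For ACSL1 the change in Ov4Carbo7 exceeded that in Ov4Carbo4 by 2.11 log2 units, being 1.23 in the former and -0.89 in the latter. Since Ov4Carbo enters both changes, this excess is the difference between the clones already given above (limma adjusted p = 5.15e-06, over all genes). All 3 samples of Ov4Carbo7 were above all 3 of Ov4Carbo4. ACSL1 and FABP5 were flagged for this difference, so the adjusted p and the separation of values restate it and add no support. For FABP5 the excess was 3.59 (adjusted p = 1.66e-04), and again the 3 values of each clone did not overlap. Its changes from Ov4Carbo were 2.38 in Ov4Carbo7 and -1.21 in Ov4Carbo4, the latter not passing (adjusted p = 0.0955). Without Ov4Carbo replicate 1 they were 1.68 and -1.91. FABP5 sits at low levels in both clones. On log2(RPKM + 1) its difference between the clones was 0.48 (adjusted p = 3.01e-04), under the fold limit, while that of ACSL1 was 2.06.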

How the results depend on the processing

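Among the 9 members besides PLIN2, the calls against the parental line in Ov4Cis and Ov4Carbo numbered 1 and 1. They became 0 and 0 on log2(RPKM + 1) and 0 and 0 with the filter on mean log2 RPKM 1, which leaves FABP5 untested. Over all 16604 genes the calls fell from 2635 and 2106 to 1258 and 790 on log2(RPKM + 1). With the filter, 988 and 730 of 12037 genes were called. Under the filter Ov4Carbo4 against the parental line gave 0, and the clones 1, where 971 and 1645 of 12037 genes were called. On log2(RPKM + 1) Ov4Carbo7 against Ov4Carbo gave 1 and the clones 1, with 823 and 1746 of 16604 genes. Ov4Carbo7 against the parental line gave 2 in place of 1 on log2(RPKM + 0.1), with only the groups compared and with the title series term. Over all genes 2556, 2836 and 2762 were then called there, in place of 2824. The title series term also gave 2 for Ov4Carbo4 against the parental line and 1 for Ov4Carbo4 against Ov4Carbo, with 2972 and 2271 of all genes. It turned the PLIN2 difference of Ov4Carbo7 from the parental line from 3.64 to -2.60. Leaving out each replicate gave 0 to 1 for Ov4Carbo4 against Ov4Carbo, 1 to 2 for Ov4Carbo7 against the parental line and 2 to 3 for Ov4Carbo7 against Ov4Carbo. Over all genes the calls ran, in the same order, from 2112 to 2695, 2653 to 2917 and 1938 to 2776. At the adjusted p alone the counts were 4, 4, 7 and 5 against the parental line and 5, 5 and 5 for the others. The shares of all genes were 36.2%, 34%, 39.7% and 42.6%, and then 42.2%, 36.6% and 51.1%.

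Of the listed genes, calls against the parental line were 3 (Ov4Cis), 3 (Ov4Carbo), 6 (Ov4Carbo4) and 6 (Ov4Carbo7) on log2(RPKM + 1). With the filter they were 4, 6 and 5 for Ov4Cis, Ov4Carbo4 and Ov4Carbo7. Over all 16604 genes the calls were 1258, 790, 1053 and 1294 on log2(RPKM + 1). With the filter 988, 971 and 1134 of 12037 genes were called. The filter gave 3 for Ov4Carbo4 against Ov4Carbo, and log2(RPKM + 1) gave 6 for Ov4Carbo7 against Ov4Carbo. There 996 of 12037 and 823 of 16604 genes were called. For Ov4Carbo against the parental line, only the groups compared gave 3 and the title series term 8, and that term gave 8 for Ov4Carbo4 against Ov4Carbo. In the same order 1564, 2527 and 2271 of all genes were called. At the adjusted p alone the listed genes that passed were 28, 22, 32 and 38 against the parental line. They were 32 and 30 for the clones against Ov4Carbo and 43 between the clones. The shares of all genes are those given above for the members. Leaving out each replicate gave 3 to 8 for Ov4Carbo against the parental line (8 without Ov4Carbo replicate 1, 3 without Ov4Carbo replicate 3 or parental replicate 2). It gave 5 to 9 for Ov4Carbo4 against Ov4Carbo (9 without Ov4Carbo replicate 1 or Ov4Carbo4 replicate 2). In the order of these omissions, calls over all genes were 2527, 2115 and 1858 in the former comparison and 2695 and 2233 in the latter. The cause was not tested.

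The replicate block, with numbers that do not pair the samples, gave 2 calls of members for Ov4Carbo7 against the parental line in place of 1. It changed no other count of members or listed genes. Over all genes it gave 2780 calls for Ov4Carbo7 against the parental line, in place of 2824. It left the PLIN2 difference between the clones at 10.67.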
